A study of Mus musculus with 8 samples.

Results

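Lymphocyte transcripts were followed across epididymal white fat through 33 genes that mark T cells, natural killer (NK) or other cytotoxic cells, and B cells. They were chosen by symbol: 18 T lineage genes, 8 NK and cytotoxic genes and 7 B lineage genes. Each symbol was found, giving 33 of 18691 genes. The series held RNA sequencing libraries of epididymal fat of C57BL/6J mice aged 16 weeks, 4 from wild type (WT) samples and 4 carrying the label Mrp4 KO (Mrp4-/-). All libraries shared strain, tissue and age, and the labels name no treatment, no driver that restricts the deletion to a cell type and no structure of the allele. WT replicates were numbered 1, 2, 3 and 4 and the knockout-labelled (KO-labelled) replicates 1, 2, 4 and 5. The labels do not say that the samples came from separate mice, so a p-value here reflects library-to-library spread, which may be technical.

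Mature lymphocytes are sorted by the receptors they carry. T cells read antigen through a T cell receptor coupled to the CD3 chains, and B cells through a membrane antibody coupled to CD79. NK cells use germline-encoded receptors and kill with granzymes and perforin, which cytotoxic T cells also make. Visceral fat of mice is known to hold resident regulatory T cells, effector T cells, NK cells and B cells among its stromal cells. In whole tissue, more cells of a type and more RNA per cell cannot be told apart.

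The level of the gene named as deleted did not separate the groups. Abcc4, which encodes Mrp4, was at 3.52 ± 0.232 FPKM (fragments per kilobase of transcript at equal depth) in WT and 3.61 ± 0.244 FPKM in the KO-labelled libraries (SD, n = 4; exact two-sided permutation p = 0.571, where 0.0286 is the smallest possible). Reads outside the deleted stretch would not show it, and every direction below rests on the labels. Total expected counts, the authors' estimated fragments per gene, were 14.1e6 to 14.7e6 per library. Adipocyte markers were abundant in all libraries, at a summed 29900 to 33800 FPKM in WT and 24700 to 29500 FPKM in the KO-labelled group over 10 of 10 genes. Liver markers were higher in the KO-labelled group for 10 of 10 genes, with sums of 49.5 to 121 FPKM in WT and 756 to 1450 FPKM in the KO-labelled libraries, and none was at 0. Replicate 2 was the highest KO-labelled library for the liver sum, while replicate 1 was the highest for the T, NK and B sums given below. The part of liver RNA in the lymphocyte results was not tested.

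Sequences are shown first for the NK and cytotoxic genes, since a short string recurred upstream of them. The 250 bases before the start site were read from RefSeq (build GRCm38.p6) for the 22 of 33 members with an entry, 11 T, 7 NK and 4 B genes. Searches covered 8 strings on both strands. The string TGTGGT, the core recognised by RUNX factors and read as ACCACA on the other strand, was present for 7 of 7 NK and cytotoxic genes. It was present for 2 of 11 T genes (Lck and Zap70), 0 of 4 B genes and 15.9% of all 27025 genes with an entry. Each window below holds 30 bases in the gene's sense, with the string in capitals; none overlapped another searched string.
Klrk1, 129 bases before the start, chr6:129623976-129624005, - strand: tgatagctgtgcTGTGGTtgtgtgggggtt
Klrb1c, 89 bases before the start, chr6:128788713-128788742, - strand: aggaaggaaagcTGTGGTcatggtgttttg
Nkg7, 83 bases before the start, chr7:43437043-43437072, + strand: gggcccacccctACCACAtaggaggagagg
Gzma, 50 bases before the start, chr13:113101014-113101043, - strand: gagaagaacaaaACCACAtcctttgcactc
Gzmb, first copy, 93 bases before the start, chr14:56262410-56262439, - strand: accctatgccctTGTGGTcttgccctgggc
Gzmb, second copy, 34 bases before the start, chr14:56262351-56262380, - strand: tgtgggttctgcTGTGGTtacttcatgatt
Prf1, 130 bases before the start, chr10:61297694-61297723, + strand: tgggaacctgtgACCACActctgggggcag
Ncr1, first copy, 176 bases before the start, chr7:4337527-4337556, + strand: ttagatccaaaaTGTGGTtaaatgtgttat
Ncr1, second copy, 41 bases before the start, chr7:4337662-4337691, + strand: caggcctcacccACCACAtcctgtgcatct

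Gzmb and Ncr1 thus carried the string in 2 places. Among 24 further NK and cytotoxic genes with an entry, 9 held it. A string match is a description and was not tested as a binding site. The octamer ATGCAAAT, a string of antibody gene promoters, occurred in no member with an entry and in 1.81% of all genes. The ETS core CCGGAA occurred in Zap70 and in 13.6% of all genes. The GATA string AGATAA occurred in Cd3g and Foxp3 and in 11.4% of all genes. The TATA string TATAAA occurred in Foxp3 and in 14.3% of all genes. Single longer strings for NF-kB, IRF and EBF factors occurred in no member with an entry and in 0.159%, 0.233% and 0.914% of all genes. Members without an entry were Cd4, Cd8b1, Cd2, Cd6, Thy1, Icos, Cd28, Klrd1, Cd79b, Ms4a1 and Blk.

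Most lymphocyte genes were rare in this tissue. Averaged over the 8 libraries, Thy1 was highest at percentile 82.5 of all genes in FPKM, followed by Cd2 at percentile 54.3 and Igj at 53.1. The other members all lay below the middle of all genes, from Cd79a at percentile 45.3 to Ctla4 at 21.6. Within the CD3 complex, the T cell receptor's signalling partners, Cd3g was at 0.962 ± 0.323 FPKM in WT, Cd3e at 0.497 ± 0.318 and Cd3d at 0.312 ± 0.109 (SD, n = 4). Neighbours in that order overlapped between libraries. Cd4, the helper coreceptor, was at 0.522 ± 0.13 FPKM in WT and Cd8a, the cytotoxic coreceptor, at 0.17 ± 0.0258, with every WT library higher for Cd4 (at least 0.34) than for Cd8a (at most 0.2).

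**Figure D1:**
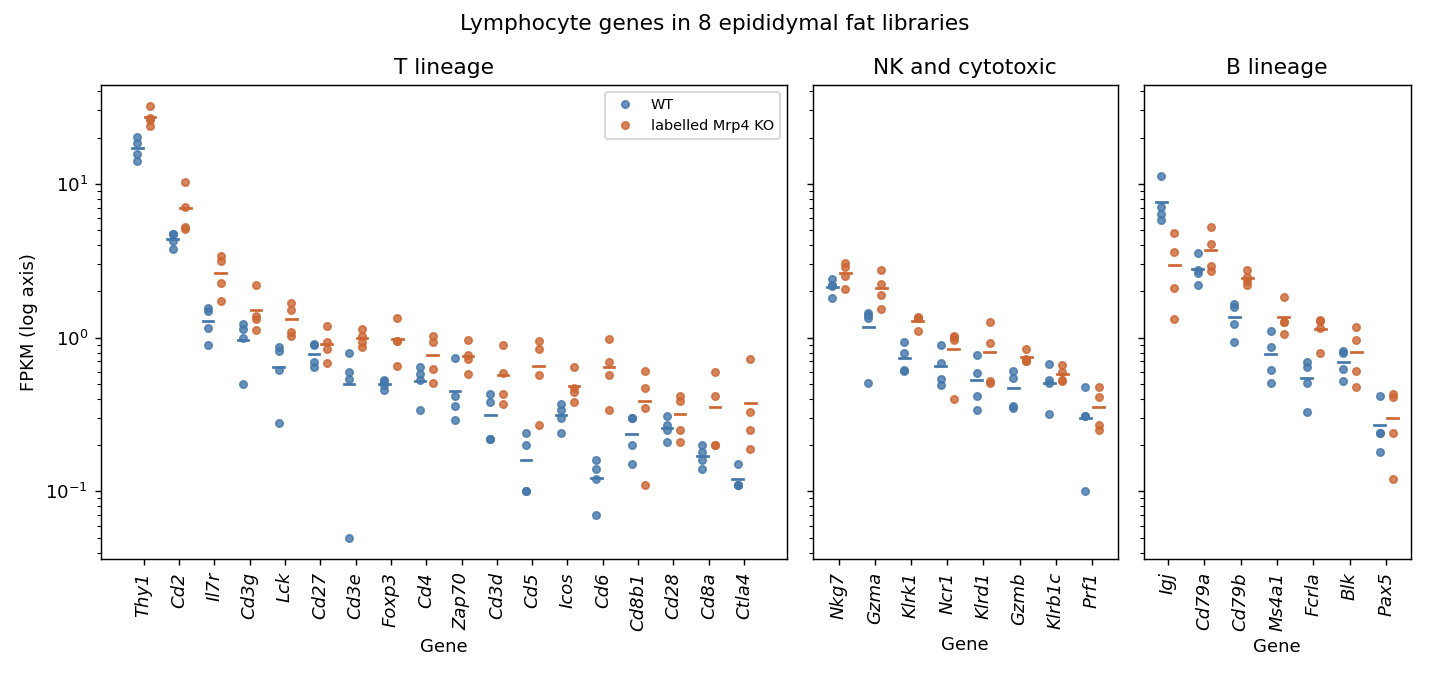
FPKM of each member in each library on a log axis, by lineage and ordered by level, with WT in blue, KO-labelled libraries in orange and a line at each group mean of 4 libraries. Thy1 lies above all other members, and Igj is the only B lineage gene whose KO-labelled libraries all lie below WT.

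T, NK and B lineage genes each had members that rose in the KO-labelled libraries, and the B lineage alone had a member that fell. Of the 33, 25 had enough counts to be tested with edgeR's quasi-likelihood test (adjusted p under 0.05, Benjamini-Hochberg over 14257 genes). Cd6, Thy1, Il7r, Foxp3, Klrk1, Cd79b and Fcrla rose, Igj fell, and 17 did not pass. That is 32% of the tested members, where 18.3% of all tested genes were called (10.2% higher, 8.05% lower). Of the calls over all genes 55.9% were higher, and 74.1% when libraries were scaled by size alone, which kept all 8 member calls. Of the 17, 4 had an unadjusted p under 0.05 (Cd2, Lck, Gzma and Ms4a1). Log2 fold changes were above 0 for 24 of 25, with a median of 0.60 beside 0.00 over all tested genes. By lineage the medians were 0.60 for 13 T genes, 0.46 for 6 NK genes and 0.55 for 6 B genes. Without KO-labelled replicate 1 the medians over the genes then tested were 0.55 for T, 0.27 for NK and 0.36 for B. The lineages were not tested against each other.

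Low counts limit what these tests show. The count filter was met by 25 members, and Cd6 met its minimum of 10 counts in 0 WT and 4 KO-labelled libraries, so it passed through the group where it was high. Another 7 (Cd3e, Cd3g, Lck, Zap70, Gzma, Gzmb and Fcrla) met it in all 4 KO-labelled libraries and in fewer than 4 WT libraries. With all 33 genes tested and no filter, 7 rose and 1 fell, where 13.0% of 18671 genes were called (7.27% higher, 5.72% lower); Cd5 joined the list and Fcrla left it (adjusted p = 0.0557). In FPKM, all KO-labelled libraries lay above all WT libraries for 15 of 33 members (13.4% of all genes) and below for 1 (5.58% of all genes). Those 15 were 10 of 18 T, 3 of 8 NK and 2 of 7 B genes.

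**Figure D2:**
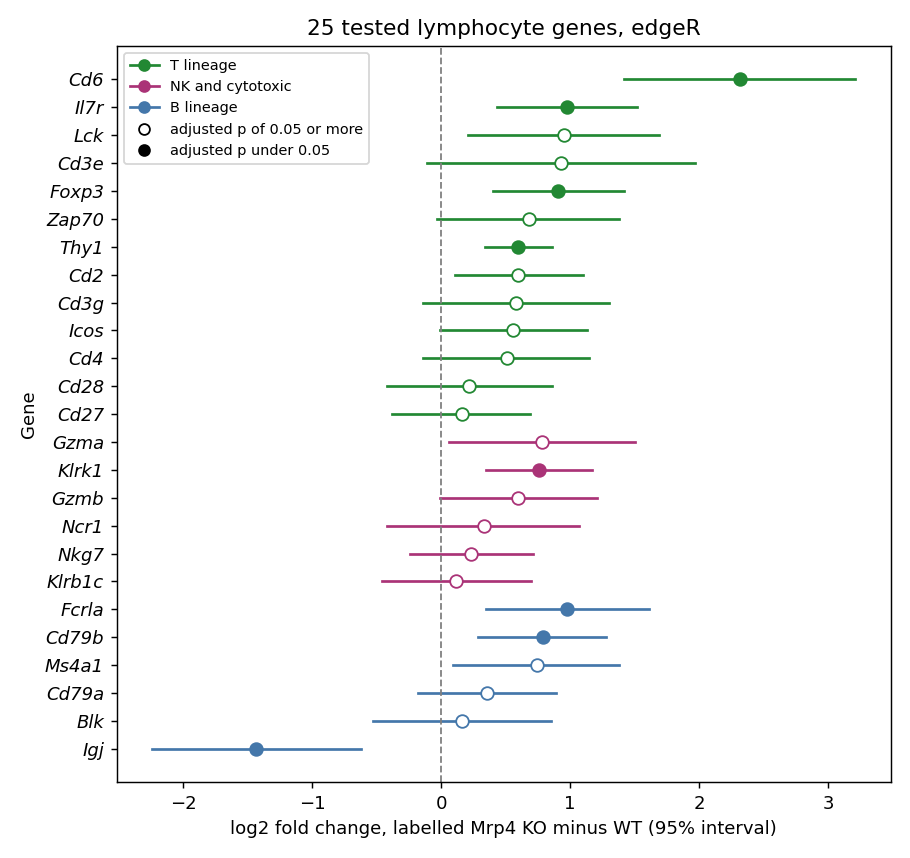
Log2 fold change of each tested member (KO-labelled minus WT) with its 95% interval from edgeR, coloured by lineage; filled points have an adjusted p under 0.05. All points but Igj lie right of 0, and 17 of 25 are open.

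Among T cell receptor components and coreceptors, the 3 tested genes (Cd3e, Cd3g and Cd4) had log2 fold changes above 0 and did not pass at an unadjusted p of 0.075 to 0.11. The 3 CD3 genes, which stand next to each other on chromosome 9 with 0 protein-coding genes between them in RefSeq, had a summed level of 2.16, 2.2, 1.96 and 0.77 FPKM in WT replicates 1 to 4. In KO-labelled replicates 1, 2, 4 and 5 the sum was 3.73, 2.52, 2.89 and 3.15 FPKM. The KO-labelled sums all lay above the WT sums, and WT replicate 4 stood lowest, with 1 count of Cd3e. Cd3e had a log2 fold change of 0.93 ± 0.47 (SE, adjusted p = 0.184) and Cd3g of 0.58 ± 0.32 (adjusted p = 0.222). Cd3d, not tested, was at 0.57 ± 0.233 FPKM in the KO-labelled libraries. Cd4 was at 0.775 ± 0.245 FPKM there, 0.51 ± 0.29 higher on the log2 scale (adjusted p = 0.237). Cd8a and Cd8b1, which encode the chains of CD8 and neighbour each other on chromosome 6, had at most 26 and 12 counts in any library and were not tested; their KO-labelled means were 0.355 ± 0.193 and 0.385 ± 0.212 FPKM. For Cd4, Cd8a and Cd8b1 the groups overlapped.

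The kinases next to the receptor did not pass in edgeR, though Lck did in DESeq2. Lck, the kinase that phosphorylates the CD3 chains, was at 0.62, 0.87, 0.82 and 0.28 FPKM in WT and at 1.67, 1.02, 1.51 and 1.09 FPKM in the KO-labelled libraries, groups that do not overlap. Its log2 fold change was 0.95 ± 0.33 (edgeR adjusted p = 0.0712); DESeq2 gave 0.95 with an adjusted p of 0.0427. Zap70, the kinase recruited to phosphorylated CD3, had 0.68 ± 0.32 (edgeR adjusted p = 0.157), with overlapping groups. Cd2, an adhesion receptor of T and NK cells and the second most abundant member after Thy1, was at 4.36 ± 0.446 FPKM in WT and 6.92 ± 2.42 FPKM in the KO-labelled libraries (SD, n = 4). KO-labelled replicate 1 reached 10.27 FPKM, the others 5.06 to 7.11, and all lay above the WT maximum of 4.72. The difference for Cd2 was 0.60 ± 0.22 on the log2 scale (edgeR adjusted p = 0.0833).

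Cd6 had the largest log2 fold change of the tested members, and its neighbour Cd5 differed in the same direction. They encode surface glycoproteins that tune T cell receptor signalling, Cd6 by binding ALCAM, and the genes are neighbours on chromosome 19. Cd6 (gene 12511) was at 0.07, 0.16, 0.14 and 0.12 FPKM in WT and at 0.69, 0.34, 0.57 and 0.98 FPKM in KO-labelled replicates 1, 2, 4 and 5. Its lowest KO-labelled library was thus above its highest WT library. Cd6 rose by 2.32 ± 0.40 on the log2 scale (95% interval 1.42 to 3.21, edgeR adjusted p = 0.00656), from 3 to 7 counts per WT library to 15 to 41 counts. Cd6 passed without each single library. It met the count filter in 0 WT and 4 KO-labelled libraries. With no filter its log2 fold change was 2.31 ± 0.41 (edgeR adjusted p = 0.00559). Cd5 was at 0.2, 0.24, 0.1 and 0.1 FPKM in WT and at 0.95, 0.27, 0.57 and 0.84 FPKM in the KO-labelled libraries. The groups did not overlap, although KO-labelled replicate 2 lay just above WT. Cd5 did not meet the filter; without it, its log2 fold change was 1.92 ± 0.47 (edgeR adjusted p = 0.0246).

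Thy1 and Il7r, surface proteins of T cells and other cells, also rose. Thy1 (gene 21838), which fibroblasts also carry, was at 15.72, 18.51, 20.29 and 14.12 FPKM in WT and at 31.85, 26.82, 26.19 and 23.73 FPKM in the KO-labelled libraries. The groups did not overlap, and the change of 0.60 ± 0.12 on the log2 scale (edgeR adjusted p = 0.0109) held without each single library. Beside it, 4 of 10 fibroblast and progenitor markers rose and 1 fell, with summed levels of 1570 to 1810 FPKM in WT and 1480 to 1710 in the KO-labelled group. Endothelial markers were higher for 5 of 10, with sums of 341 to 537 FPKM in WT and 577 to 623 FPKM in the KO-labelled libraries, which do not overlap. Of 9 mesothelial markers 1 fell and 8 did not pass, all with log2 fold changes below 0 (median -0.73), and the sums were 184 to 286 and 68.8 to 187 FPKM. The share called was 50% for fibroblast and progenitor, 50% for endothelial and 11.1% for mesothelial markers, beside 18.3% of all tested genes. None of these markers was at 0, and their part in the Thy1 result and in the other lymphocyte results was not tested. Il7r (gene 16197), the interleukin 7 receptor needed for T cell survival and also carried by innate lymphoid cells, was at 0.89, 1.48, 1.57 and 1.16 FPKM in WT. In the KO-labelled libraries it was at 3.38, 1.74, 3.17 and 2.25 FPKM, all above WT. Its log2 fold change was 0.98 ± 0.24 (edgeR adjusted p = 0.026), and 4 of 8 omissions of a library (WT replicates 1 and 4, KO-labelled replicates 1 and 4) ended the call, with values of 0.84 to 1.14.

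Of the regulatory and activated T cell members, Foxp3 rose, Icos, Cd28 and Cd27 did not pass, and Ctla4 was not tested. Foxp3 (gene 20371), the lineage factor of regulatory T cells, was at 0.49, 0.46, 0.53 and 0.52 FPKM in WT and at 1.35, 0.95, 0.95 and 0.65 FPKM in the KO-labelled libraries. WT values lay close together, and each KO-labelled library was above them, replicate 5 by the least. Foxp3 rose by 0.91 ± 0.23 on the log2 scale (edgeR adjusted p = 0.0274). The call ended without WT replicate 1, 3 or 4 or KO-labelled replicate 1, 2 or 4, with values of 0.72 to 1.06. The inhibitory receptor gene Ctla4 was at 0.11 to 0.15 FPKM in WT and at 0.73, 0.25, 0.33 and 0.19 FPKM in the KO-labelled libraries. These groups did not overlap either, but Ctla4 had 3 or 4 counts per WT library and did not pass without the filter (1.54 ± 0.51, edgeR adjusted p = 0.0698). Its neighbours on chromosome 1, the costimulatory receptor genes Icos and Cd28, had log2 fold changes of 0.56 ± 0.26 (adjusted p = 0.148) and 0.22 ± 0.29 (adjusted p = 0.615). Cd27, another costimulatory receptor, had 0.16 ± 0.24 (95% interval -0.38 to 0.69, adjusted p = 0.673).

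Over the T lineage, 4 of 13 tested genes rose and 9 did not pass. That is a share of 30.8% beside 18.3% of all tested genes (10.2% higher). No T gene was lower at an unadjusted p under 0.05 by edgeR, DESeq2 or limma-voom. DESeq2 called 5 and limma-voom 4, all higher. Without WT replicate 4, KO-labelled replicate 1 or KO-labelled replicate 4, 2 T genes rose. KO-labelled replicate 1 was the highest library for 12 of 18 T genes and for 18 of all 33 members. Without Thy1 the T genes summed to 11, 12.8, 13.2 and 9.77 FPKM in WT and to 27.4, 15.8, 20.4 and 18.7 FPKM in KO-labelled replicates 1, 2, 4 and 5, which do not overlap. The macrophage markers were also highest in KO-labelled replicate 1, at a sum of 1350 FPKM against 870 to 1160 FPKM in the other KO-labelled libraries and 726 to 853 FPKM in WT. Of these 14 markers, 10 had log2 fold changes above 0 and 4 below 0. Among them 4 rose, a share of 28.6% beside 18.3% of all tested genes, and 10 did not pass. None of these markers was at 0 FPKM. Their part in the T cell result was not tested.

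**Figure D3:**
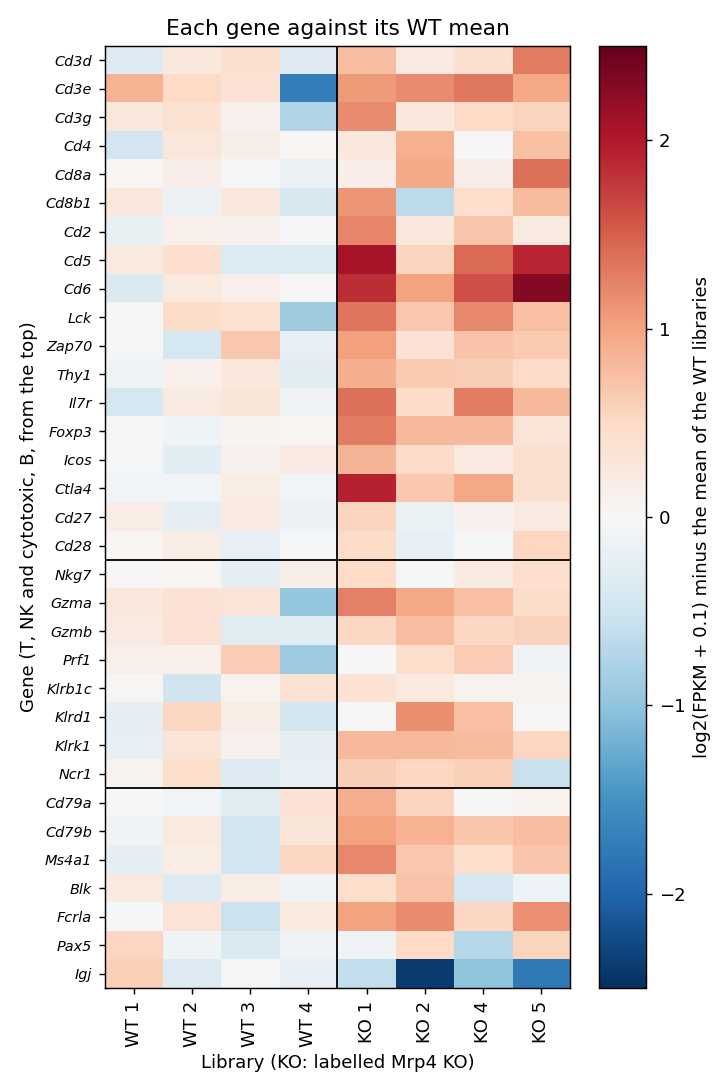
Each member in each library as log2(FPKM + 0.1) minus its mean over the WT libraries (red higher, blue lower), with T, NK and cytotoxic, and B lineage genes from the top. KO-labelled replicate 1 is red through most T genes, and Igj is the one row that is blue in all KO-labelled libraries.

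Among NK and cytotoxic genes 1 of 6 tested rose and 5 did not pass, a share of 16.7% beside 18.3% of all tested genes. Klrk1 (gene 27007) encodes NKG2D, an activating receptor for stress ligands on NK cells and some T cells. It was at 0.62, 0.94, 0.79 and 0.61 FPKM in WT and at 1.35, 1.36, 1.34 and 1.1 FPKM in the KO-labelled libraries. Each KO-labelled value lay above every WT value, with replicates 1, 2 and 4 at 1.34 to 1.36 FPKM and replicate 5 apart at 1.1 FPKM. Klrk1 rose by 0.76 ± 0.18 on the log2 scale (95% interval 0.35 to 1.17, edgeR adjusted p = 0.023). The call ended without WT replicate 1 or 4 or KO-labelled replicate 2 or 4, which left no NK gene past the threshold, with Klrk1 values of 0.68 to 0.87 over all omissions. By DESeq2 and limma-voom 1 NK gene passed as well, and 2 and 3 had an unadjusted p under 0.05. The region before its start is shown in full, with TGTGGT in capitals.
Klrk1, chr6:129623865-129624114, - strand: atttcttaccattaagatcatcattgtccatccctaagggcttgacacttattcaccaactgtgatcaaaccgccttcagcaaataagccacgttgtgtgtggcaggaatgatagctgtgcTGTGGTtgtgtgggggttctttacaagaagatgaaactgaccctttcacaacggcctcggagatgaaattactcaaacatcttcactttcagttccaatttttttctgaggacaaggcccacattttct

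The granzyme genes, which encode proteases delivered into target cells, did not pass, although their groups did not overlap. Gzma was at 1.34, 1.44, 1.41 and 0.51 FPKM in WT and at 2.75, 2.23, 1.9 and 1.54 FPKM in the KO-labelled libraries. Gzmb was at 0.468 ± 0.132 FPKM in WT and 0.745 ± 0.0714 FPKM in the KO-labelled libraries (SD, n = 4). The log2 fold changes were 0.78 ± 0.32 (edgeR adjusted p = 0.117) and 0.60 ± 0.27 (edgeR adjusted p = 0.149). Prf1, which encodes the pore protein perforin, was at 0.3 ± 0.156 and 0.352 ± 0.111 FPKM, within the spread between libraries, and was not tested. Nkg7, a granule membrane protein gene and the most abundant of this lineage, was at 2.15 ± 0.243 FPKM in WT and 2.63 ± 0.449 FPKM in the KO-labelled libraries (0.23 ± 0.21, adjusted p = 0.462).

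NK receptor genes that define the lineage did not pass. Ncr1, which encodes NKp46, had a log2 fold change of 0.33 ± 0.34 (95% interval -0.42 to 1.07, edgeR adjusted p = 0.52). Klrb1c, which encodes NK1.1, had 0.12 ± 0.26 (95% interval -0.46 to 0.70, edgeR adjusted p = 0.769). These intervals reach beyond 0.6, so a rise of the size seen in Thy1 lies within them. Klrd1, which encodes CD94 and neighbours Klrk1 on chromosome 6, was not tested and overlapped between groups (0.53 ± 0.191 and 0.802 ± 0.36 FPKM). Summed over the 8 genes, NK levels were 6.61, 7.49, 6.45 and 5.52 FPKM in WT and 10.3, 9.74, 9.39 and 7.94 FPKM in the KO-labelled libraries, without overlap.

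B lineage genes split in direction. Igj fell while Cd79b and Fcrla rose, and Ms4a1, Cd79a and Blk did not pass. Igj (gene 16069) encodes the J chain that joins antibody units into secreted IgA dimers and IgM pentamers and is made by antibody-secreting cells. It was at 11.17, 5.83, 7.11 and 6.34 FPKM in WT and at 4.77, 1.32, 3.63 and 2.1 FPKM in the KO-labelled libraries. Every KO-labelled library lay below every WT library, with replicate 2 lowest and WT replicate 1 highest. The change was -1.43 ± 0.36 on the log2 scale (95% interval -2.24 to -0.62, edgeR adjusted p = 0.0275), on 173 to 335 counts in WT and 40 to 143 counts in the other group.

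Of the 2 signalling partners of the B cell receptor, Cd79b rose and Cd79a did not pass. Cd79b (gene 15985), which encodes the Ig-beta signalling chain, was at 1.23, 1.59, 0.93 and 1.66 FPKM in WT and at 2.74, 2.48, 2.19 and 2.34 FPKM in the KO-labelled libraries. It rose by 0.79 ± 0.22 on the log2 scale (edgeR adjusted p = 0.0382), with no overlap. Its partner Cd79a, which encodes Ig-alpha, was at 2.75, 2.62, 2.2 and 3.56 FPKM in WT and at 5.23, 4.06, 2.72 and 2.94 FPKM in the KO-labelled libraries. These groups overlapped, and Cd79a did not pass (0.36 ± 0.24, edgeR adjusted p = 0.313).

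Fcrla (gene 98752), an intracellular Fc receptor-like protein gene of B cells, was at 0.51, 0.69, 0.33 and 0.64 FPKM in WT and at 1.16, 1.31, 0.8 and 1.28 FPKM in the KO-labelled libraries, groups that do not overlap. It rose by 0.98 ± 0.28 on the log2 scale (edgeR adjusted p = 0.04). Ms4a1, which encodes CD20, was at 0.778 ± 0.268 FPKM in WT and 1.36 ± 0.344 FPKM in the KO-labelled libraries (SD, n = 4; 0.74 ± 0.29 on the log2 scale, edgeR adjusted p = 0.0995), and WT replicate 4 (1.11) lay above KO-labelled replicate 4 (1.05). Blk, a B cell kinase, had 0.16 ± 0.31 (edgeR adjusted p = 0.742), and Pax5, the B cell identity factor, was not tested at 2 to 7 counts per library.

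Calls in the B lineage changed with the library left out. With all libraries 3 of 6 tested genes passed, a share of 50% beside 18.3% of all tested genes. None passed in edgeR without WT replicate 1, 3 or 4 or KO-labelled replicate 5, and 1 passed without KO-labelled replicate 1, 2 or 4. With all libraries, 4 had an unadjusted p under 0.05, and DESeq2 and limma-voom also called 3. Igj lost its call in 5 of 8 omissions (WT replicates 1, 3 and 4, KO-labelled replicates 4 and 5) with values of -1.75 to -1.18. Cd79b lost it in 7, all but WT replicate 2 (0.64 to 0.91), and Fcrla in 6, all but WT replicate 2 and KO-labelled replicate 4 (0.81 to 1.12). The direction of all 8 called members stayed the same in all 64 refits without 1 library. The FPKM ranges of these members do not overlap between groups, so omission of 1 library had little room to reverse a direction. Over all tested genes, omission of 1 library gave 1172 to 3683 calls, against 2606 with all libraries.

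Igj made up 63.8%, 47.2%, 59% and 44.7% of the summed B lineage level in WT and 28.1%, 11%, 33% and 19.1% in KO-labelled replicates 1, 2, 4 and 5. The ratio of Igj to Cd79b, per length, was 6.05 ± 2.73 in WT and 1.21 ± 0.589 in the KO-labelled libraries (SD, n = 4). Its ranges, 3.67 to 9.08 and 0.532 to 1.74, could not overlap. Every KO-labelled library was already below WT for Igj and above WT for Cd79b, so the ratio is not a separate result. Without Igj the B genes summed to 6.42 ± 1.19 FPKM in WT and 9.78 ± 2.11 FPKM in the KO-labelled libraries, and these overlapped. With Igj the sums were 14.1 ± 2.48 and 12.8 ± 2.87 FPKM.

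**Figure D4:**
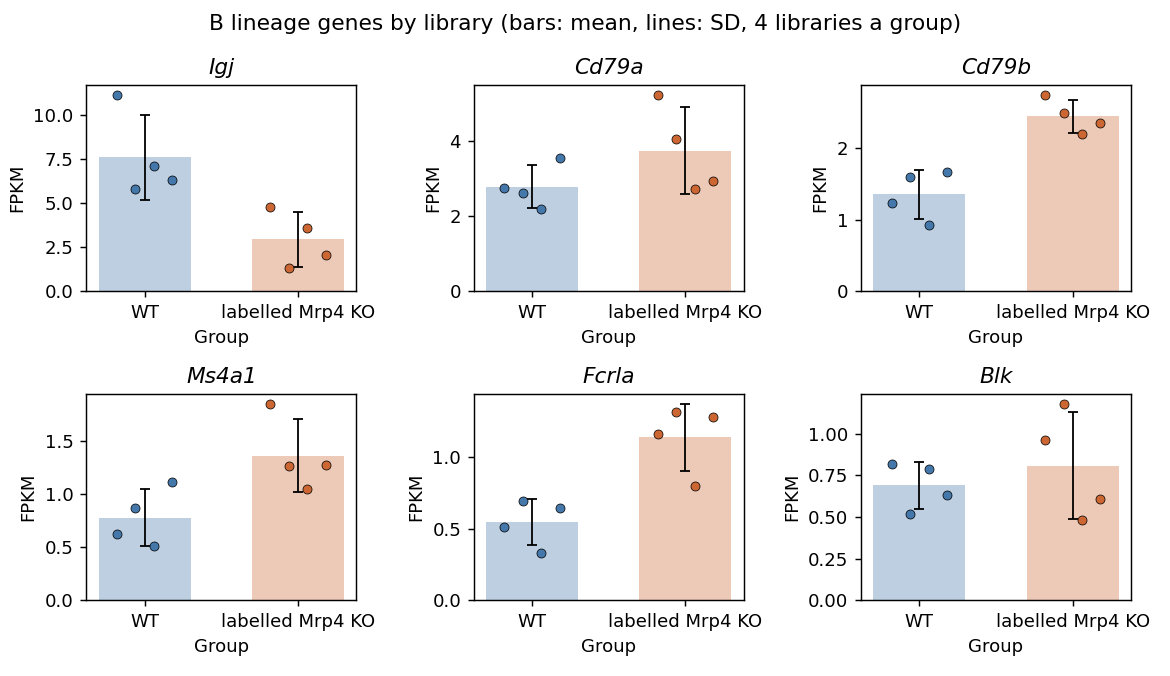
FPKM of 6 B lineage genes by group, with bars for the mean, lines for the SD and points for the 4 libraries of each group. Igj is lower in every KO-labelled library than in WT, Cd79b and Fcrla are higher in every one, and Cd79a, Ms4a1 and Blk overlap.

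The regions before the start of Igj, which fell, and Fcrla, which rose, are shown side by side as the B lineage genes with the opposite calls and a RefSeq entry. Neither holds any of the 8 searched strings, so no letters are in capitals.
Igj, chr5:88527898-88528147, - strand: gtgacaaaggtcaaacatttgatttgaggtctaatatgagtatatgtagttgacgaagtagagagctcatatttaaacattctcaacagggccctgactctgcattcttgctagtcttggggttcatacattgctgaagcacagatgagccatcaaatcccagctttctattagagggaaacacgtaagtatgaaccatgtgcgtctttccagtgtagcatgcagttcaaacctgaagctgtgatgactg
Fcrla, chr1:170927584-170927833, - strand: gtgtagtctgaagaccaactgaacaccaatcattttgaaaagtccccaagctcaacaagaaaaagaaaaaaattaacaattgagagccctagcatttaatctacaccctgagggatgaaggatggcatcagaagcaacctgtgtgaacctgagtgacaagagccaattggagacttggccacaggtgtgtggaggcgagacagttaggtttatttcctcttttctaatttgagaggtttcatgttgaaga

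**Figure D5:**
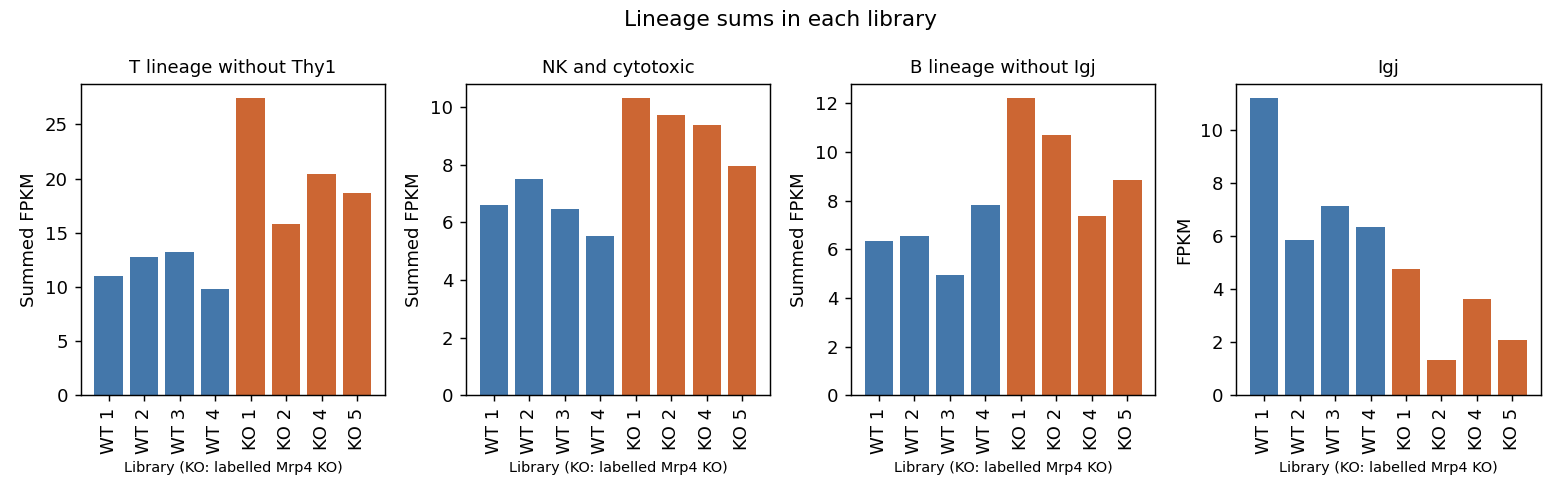
Summed FPKM in each library for the T lineage without Thy1, the NK and cytotoxic genes and the B lineage without Igj, and the FPKM of Igj alone, with WT in blue and KO-labelled libraries in orange. The T and NK sums do not overlap between groups (9.77 to 13.2 against 15.8 to 27.4 FPKM for T), the B sums do, and Igj runs opposite.

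Of 23 other B and plasma cell genes tested, 3 rose, 1 fell and 19 did not pass, a share of 17.4% called beside 18.3% of all tested genes. Blnk, an adaptor below the B cell receptor that myeloid cells also use, rose from 4.29 ± 1.11 to 8.1 ± 1.22 FPKM (SD, n = 4; 0.85 ± 0.17 on the log2 scale). Prdm1, the plasma cell regulator Blimp-1 that other cells also make, rose by 1.17 ± 0.20, and Cd22, an inhibitory B cell receptor, by 1.09 ± 0.31 (lost without any 1 library other than WT replicates 2 and 4, with values of 0.87 to 1.43). Xbp1, a secretory factor of plasma cells that is active in many tissues, fell by 0.39 ± 0.08. It stood at 110.0 ± 7.06 FPKM in WT, above each of the 7 B lineage members. Among genes tied to antibody secretion, Mzb1 was at 1.15 ± 0.443 and 0.825 ± 0.198 FPKM (-0.53 ± 0.33, edgeR adjusted p = 0.28) and Pou2af1 at 1.1 ± 0.182 and 1.13 ± 0.309 FPKM. Tnfrsf17, the plasma cell receptor BCMA, was at 0.55 ± 0.273 and 0.727 ± 0.34 FPKM and was not tested. The antibody chain genes Ighm, Igkc, Ighg1 and Iglc1 were searched for and not found among the genes of the series, so antibody heavy and light chains were not analysed here.

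Of 21 tested genes that carry the T cell receptor signal onward, 5 rose and 16 did not pass, a share of 23.8% beside 18.3% of all tested genes, with a median log2 fold change of 0.35. Ptprc, the CD45 phosphatase found on all white blood cells, rose from 8.37 ± 0.873 to 14.3 ± 2.89 FPKM (SD, n = 4; 0.70 ± 0.13, edgeR adjusted p = 0.00868). The phosphatase gene Ptpn22 (0.68), the kinase gene Fyn (0.48) and the protease gene Malt1 (0.48) also rose. The calls ended for Malt1 (0.35 to 0.57) without WT replicate 1, 3 or 4 or KO-labelled replicate 1 or 4, for Fyn (0.40 to 0.56) without these other than WT replicate 3, and for Ptpn22 (0.55 to 0.78) without WT replicate 1 or 3 or KO-labelled replicate 4. Cd247, the zeta chain of the receptor, was at 5.83 ± 0.625 and 8.02 ± 1.28 FPKM (0.35 ± 0.11, edgeR adjusted p = 0.06). The receptor chain genes Trac, Trbc1 and Trbc2 were searched for and not found among the genes of the series. Several of these genes also act in other blood cells. Macrophage markers summed to 726 to 853 FPKM in WT and 870 to 1350 FPKM in the KO-labelled group. Of these 14 markers 4 rose and 10 did not pass, a share of 28.6% called. They had a median log2 fold change of 0.23, with 10 above 0 and 4 below 0. Their part in the rises of the signalling genes was not tested.

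Of 16 T cell transcription factors 2 rose, Ikzf1 (0.63 ± 0.17) and Bcl11b (0.94 ± 0.28), and 14 did not pass. The share called was 12.5%, beside 18.3% of all tested genes. The Ikzf1 call ended without WT replicate 3 or 4 or KO-labelled replicate 2 (0.46 to 0.73), and the Bcl11b call without any 1 library but WT replicate 2 (0.81 to 1.16). Bcl11b reached 10 counts in 2 WT and 4 KO-labelled libraries, so it met the filter through the group where it was high. Without the filter it did not pass (0.93 ± 0.30, edgeR adjusted p = 0.0633), nor did it by limma on FPKM. Runx3, a factor of cytotoxic lymphocytes, was at 0.823 ± 0.169 and 1.08 ± 0.305 FPKM (0.33 ± 0.23, edgeR adjusted p = 0.332). Of 9 regulatory or activated T cell genes tested, 1 rose, 1 fell and 7 did not pass, a share of 22.2% beside 18.3% of all tested genes. Another 8 were not tested. Il1rl1, the interleukin 33 receptor of regulatory T cells in fat and of mast cells, rose by 0.60 ± 0.14. Without WT replicate 1 or 4 or KO-labelled replicate 1 or 5 it did not pass (0.49 to 0.72). Of 7 tested mast cell markers 1 rose and 4 fell, a share of 71.4% beside 18.3% of all tested genes. Summed levels over 10 markers were 55.8 to 89.1 FPKM in WT and 34.9 to 60.5 FPKM in the KO-labelled group, with none at 0. The part of mast cells in the Il1rl1 value, or in the falls of Igj and Itgae, was not tested. Ikzf2, which encodes Helios, fell by 0.43 ± 0.12 (edgeR adjusted p = 0.039), with FPKM ranges that overlap (0.96 to 1.11 in WT, 0.72 to 1.0 in the KO-labelled libraries). It did not pass with libraries scaled by size alone or by limma on FPKM. Of the 8 omissions it passed only in those of WT replicate 2 and KO-labelled replicate 1 (-0.54 to -0.38). Of 10 further NK and cytotoxic genes tested, 2 rose, 1 fell and 7 did not pass, a share of 30% beside 18.3% of all tested genes. Another 19 were not tested. Sh2d1b1 (1.44 ± 0.32) and Itga2 (1.33 ± 0.38) rose, Itga2 passing on omission of WT replicate 2 alone (1.03 to 1.53). Sh2d1b1 reached 10 counts in 1 WT library and Itga2 in 3, against 4 KO-labelled libraries each, so both met the filter through the group where they were high. Itgae, the alpha E integrin of tissue-resident lymphocytes and some dendritic cells, fell from 2.04 ± 0.465 to 1.05 ± 0.298 FPKM (-1.02 ± 0.23, edgeR adjusted p = 0.019), and lost its call without WT replicate 4 (values over all omissions -1.21 to -0.90).

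Among homing and niche genes, 4 of 23 rose and 19 did not pass, a share of 17.4% beside 18.3% of all tested genes. Ccr7, the receptor that guides naive lymphocytes and dendritic cells to lymphoid tissue, rose from 0.665 ± 0.239 to 2.12 ± 0.785 FPKM (SD, n = 4; 1.60 ± 0.31, edgeR adjusted p = 0.0109) and passed without each single library. The integrin genes Itgb7 (0.71) and Itga4 (0.46) and the chemokine receptor gene Cxcr4 (0.82) also rose. Without WT replicate 1, 3 or 4 or KO-labelled replicate 4 none of these 3 passed. Cxcr4 also failed without the count filter (edgeR adjusted p = 0.0513) and without KO-labelled replicate 1 or 5, and Itga4 without replicate 1 or 2, with values of 0.50 to 0.78, 0.67 to 1.07 and 0.37 to 0.55 for Itgb7, Cxcr4 and Itga4. Itgax, which marks dendritic cells and macrophages, rose beside Ccr7 from 3.14 ± 1.1 to 9.46 ± 1.16 FPKM. It belongs to the 14 macrophage markers, of which 4 rose and 10 did not pass (median log2 fold change 0.23). Of the 14, 10 had log2 fold changes above 0 and 4 below 0. The part of Itgax-expressing cells in the Ccr7 result was not tested. Genes of cell division were higher in the same libraries for 8 of 10, where 10.2% of all tested genes were higher. Their sums were 5 to 8.55 FPKM in WT and 12.9 to 21.8 FPKM in the KO-labelled group. Whether lymphocytes divided was not tested.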

How the data were processed

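Polyadenylated RNA of 8 epididymal fat samples was sequenced in paired reads of 100 bases, per the labels' protocols. Mouse build mm9 and Bowtie2 appear per the submitters' processing notes, and the quantifier was not given in the sources used here. Each deposited file holds, per gene, the authors' expected counts, FPKM values and a transcript length. Genes that a file does not list were set to 0.

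The authors' expected counts were rounded, then compared by edgeR 4.0.16 (R 4.3.3; filterByExpr, TMM factors, robust quasi-likelihood test, genotype alone). DESeq2 1.42.0, limma 3.58.1, other scalings, filters, thresholds and omission of each library were alternatives. The SE is the log2 fold change divided by the root of F. The authors' FPKM values describe levels. No strand setting is stated, so overlapping genes may share reads. The code was tested on simulated data. Members and lists were chosen with earlier results of these data known. Every member may be named, and of each other list up to 4 genes with the lowest p and at least 1 FPKM in a group, of which only part is printed. Bcl11b, Malt1, Cd247, Prdm1, Cd22, Itga2, Mzb1, Pou2af1, Tnfrsf17 and Runx3 were chosen after their values were seen. Promoters are RefSeq's on GRCm38.p6, a build other than mm9. One result among the T cell receptor signalling genes is not reported here.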

Additional observations from a re-analysis of the deposited data

Results flagged for a closer look

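Among 66 combinations of a member and a group, 4 had a library far from the other 3 relative to the group's range (Dixon's ratio), where chance gives about 1 in 20, or 3.3. Gzma was at 0.51 FPKM in WT replicate 4, with the other WT libraries at 1.34 to 1.44 FPKM. WT replicate 4 was also the lowest library for 9 of 33 members. Ncr1 was at 0.4 FPKM in KO-labelled replicate 5, against 0.97 to 1.02 FPKM in the other KO-labelled libraries. Klrk1 was at 1.1 FPKM in KO-labelled replicate 5, against 1.34 to 1.36 FPKM. Ctla4 was at 0.15 FPKM in WT replicate 3 and 0.11 FPKM in the other 3, a difference of 1 count.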

How the results depend on the processing

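The 8 called members all passed under DESeq2 size factors, library size alone, upper quartile factors, the filter of at least 10 counts in at least 4 libraries, DESeq2, limma-voom and limma on log2(FPKM + 1) and log2(FPKM + 0.1); without a filter 7 of the 8 did, Fcrla being lost. Scaling by library size alone raised the share of calls that were higher from 55.9% to 74.1%, and limma on log2(FPKM + 1) gave 73.1%, but the median over all genes moved by at most 0.07 on the log2 scale. Same-numbered libraries did not deviate together (correlations of 0.011, -0.075 and -0.13 for numbers 1, 2 and 4). With the replicate number as a block, 141 of all genes and 0 T, 0 NK and 0 B members passed in edgeR, while 7 T, 2 NK and 1 B member had an unadjusted p under 0.05. Number 3 occurs in WT alone and number 5 in the KO-labelled group alone. Under this block the comparison thus rested on numbers 1, 2 and 4, with fewer libraries than the main fit. At a threshold of 0.1, 4178 genes, 6 T, 1 NK and 4 B members differed; at 0.01, 551 genes, 1 T, 0 NK and 0 B members. Leaving out 1 library gave 1172 to 3683 genes, 2 to 5 T members, 0 to 1 NK members and 0 to 3 B members. The sign of all 8 called members was kept, which their non-overlapping FPKM ranges left little room to change. Signs reversed for 3 members that had not passed: Cd28 under the block (-0.07), Klrb1c without WT replicate 2 (-0.05, in a range of -0.05 to 0.30 over omissions) and Blk without KO-labelled replicate 2 (-0.07, range -0.07 to 0.35). Lck passed under DESeq2 (0.95) and limma on log2(FPKM + 1) (0.50). Cd3d, Cd8a, Cd8b1, Cd5, Ctla4, Prf1, Klrd1 and Pax5 had too few counts for the filter.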
